A study of Mus musculus with 2 samples.

Results

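The genes described here are 7 markers of simple epithelium, the keratins Krt8, Krt18 and Krt19 and the claudins Cldn3, Cldn4, Cldn7 and Cldn15. They were chosen by name, with earlier results of these data known, and all 7 were among the 13373 genes measured. The study profiled single cells of Apc mutant intestinal organoids, which are small cultures grown from gut epithelium, from mice of strain C57Bl aged 3 to 4 months. A DBZ library was compared with a DMSO library. DBZ blocks gamma-secretase, a protease that Notch receptors need for signalling, and DMSO is the vehicle. A treatment text shared by both samples lists 300 nM 4-OH-tam and 10 uM DBZ, so the titles were followed for which culture received DBZ. Nothing in the labels says how the Apc mutation was made or how many animals or cultures stood behind a library. Each treatment is a single library, so differences between treatments have no replicate check and no p-value was made. All statements compare these 2 libraries, and intervals cover counting error only.

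Keratins build the intermediate filaments of epithelial cells from pairs of a type I and a type II protein. In the gut lining Krt8 is the main type II keratin, and Krt18 and Krt19 are type I partners. Claudins are membrane proteins that form the strands of tight junctions and set which ions and solutes pass between cells. Cldn3 and Cldn4 are known mostly as barrier-forming members, Cldn7 is found along the basolateral membrane and binds Epcam, and Cldn15 forms a cation pore of the small intestine and crypts.

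The DBZ library held 1241 cells and the DMSO library 968, with medians of 10901 and 11183 UMIs per cell (unique molecular identifiers, which count captured transcripts). Totals were 16168229 and 13083018 UMIs. Levels are given per 10000 UMIs of a cell. Epcam, an adhesion molecule of all gut epithelial cells, had a UMI in 99.0% of cells under DBZ and 99.8% under DMSO. Of 8 fibroblast markers 0 were among the genes measured, and of 12 immune markers only Cd68 was. Of 8 endothelial markers 3 were measured, with a summed mean of 0.124 per 10000 under DBZ and 0.110 under DMSO. Esam was found in 7.25 and 9.30% of cells, Pecam1 in 3.38 and 3.10% and Cldn5 in 1.21% under DBZ and 0 of 968 cells under DMSO, which allows a share of up to 0.310%. The libraries shared 3 cell barcodes. No cell class that should lack these genes was set apart, so free RNA was bounded only by the lowest clusters. A Krt19 UMI was found in 32.6% of the enteroendocrine-like cluster described further on (median 8648 UMIs) and a Cldn15 UMI in 0.617% of cluster 10 (median 10491.5 UMIs).

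The most abundant of the 7 were Krt8 and Krt18, and both were lower in the DBZ library. Krt8 lies on chromosome 15, 101996698 to 102004482, minus strand (mm10, GENCODE M21), and Krt18 lies 23697 bases away at 102028180 to 102032027, plus strand. Krt8 averaged 11.5 per 10000 in DBZ cells (SD over cells 8.90, n = 1241) and 20.2 in DMSO cells (SD 12.6, n = 968). Its log2 change, DBZ over DMSO, was -0.81. Pooled UMIs, 18633 against 26498, gave the same value with a 95% counting interval of -0.84 to -0.79. Krt18 averaged 10.8 (SD 7.61) and 18.6 (SD 10.96), a log2 change of -0.78. Nearly every cell held both transcripts, so the difference lay in the amount per cell and not in the number of cells with a UMI. For Krt8 the share of cells with a UMI was 99.6% (DBZ) and 99.8% (DMSO). For Krt18, the median cell had 9.11 with DBZ and 16.2 with DMSO, and the 95th percentile was 24.3 against 39.5. The whole distribution was thus shifted, with wide overlap between cells of the libraries.

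Their promoters are printed because the pair sits side by side in opposite directions and moved together. Each is the RefSeq window (GRCm38.p6, the assembly behind mm10) from 250 bases before the annotated start to 50 after it, 5′ to 3′ on the gene's strand. Krt8 is chr15:102004293-102004592 (minus) and Krt18 is chr15:102027966-102028265 (plus). For Krt8, Krt18 and Cldn15 the RefSeq start is not the 5′ end of the GENCODE gene. Positions in the windows hold for the RefSeq start alone. Capitals mark matches, on either strand, to TGANTCA (the AP-1 motif of Fos and Jun proteins), GTGGGAA (the motif of RBPJ, the DNA-binding partner of Notch), CAGGTG (the E-box of SNAI and ZEB repressors) and TATAAA.
Krt8: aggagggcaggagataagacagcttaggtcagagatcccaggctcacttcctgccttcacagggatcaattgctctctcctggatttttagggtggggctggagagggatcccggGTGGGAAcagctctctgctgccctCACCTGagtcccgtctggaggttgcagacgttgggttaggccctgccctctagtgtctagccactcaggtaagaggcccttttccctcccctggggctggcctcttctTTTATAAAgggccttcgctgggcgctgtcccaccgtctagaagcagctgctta
Krt18: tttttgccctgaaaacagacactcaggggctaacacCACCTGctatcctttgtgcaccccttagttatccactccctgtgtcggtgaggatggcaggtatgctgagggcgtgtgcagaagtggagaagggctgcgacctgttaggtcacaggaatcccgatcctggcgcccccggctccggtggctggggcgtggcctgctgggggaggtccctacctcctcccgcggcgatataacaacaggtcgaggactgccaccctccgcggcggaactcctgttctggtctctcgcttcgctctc
The Krt8 window held 1 GTGGGAA word, 1 E-box and, across its annotated start, TATAAA overlapping its own reverse complement. The Krt18 window held 1 E-box. GTGGGAA occurs in 6.38% of all 32851 promoter windows, TATAAA in 13.6% and CAGGTG in 20.2%. A match describes letters and shows no binding.

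Krt19, a smaller type I keratin on chromosome 11 (100140810 to 100148665, minus strand), was both lower and seen in fewer DBZ cells. Its mean was 2.31 per 10000 with DBZ (SD over cells 4.77) and 4.27 with DMSO (SD 5.99), a log2 change of -0.87. Pooled UMIs, 4494 and 6534, gave -0.85 (-0.90 to -0.79). The share of cells with a Krt19 UMI was 58.4% under DBZ (exact interval 55.6 to 61.2%) against 79.8% under DMSO (77.1 to 82.2%). After every cell was thinned to 5000 UMIs the shares were 42.9 and 65.9%. Unlike the Krt8 and Krt18 pair, Krt19 was thus absent from the counts of many cells. It was also unevenly spread. The median DBZ cell had 0.874, while the 95th percentile was 10.2 and the highest cell 66.6. At the thinned depth its variance was 5.08 times its mean over DBZ cells and 4.65 times over DMSO cells, where a ratio near 1 would be pure counting noise. High ratios were not particular to Krt19. Krt8 had 3.88 over DBZ cells and 4.43 over DMSO cells. Cldn4 lay below Krt19 over DBZ cells but above it over DMSO cells, with 6.04.

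Among the claudins, Cldn4 differed by about as much as the keratins and Cldn3 by much less, although they are neighbours. Cldn4 (chromosome 5, 134945119 to 134946934, minus strand) averaged 6.19 per 10000 with DBZ (SD over cells 6.70) and 11.7 with DMSO (SD 11.2). Its log2 change was -0.92, with -0.86 from pooled UMIs (-0.90 to -0.83). UMIs were seen in 87.2 and 94.8% of cells. Cldn3 starts 39279 bases further on (134986214 to 134987472, plus strand) and averaged 4.42 (SD 3.19) and 5.30 (SD 3.81). Its log2 change of -0.26 was the smallest of the 7, with -0.21 from pooled UMIs (-0.26 to -0.16). The counting intervals of the 2 neighbours do not overlap.

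The windows of this pair are shown for that contrast, with the same capitals. Cldn4 is chr5:134946885-134947184 (minus) and Cldn3 is chr5:134985964-134986263 (plus).
Cldn4: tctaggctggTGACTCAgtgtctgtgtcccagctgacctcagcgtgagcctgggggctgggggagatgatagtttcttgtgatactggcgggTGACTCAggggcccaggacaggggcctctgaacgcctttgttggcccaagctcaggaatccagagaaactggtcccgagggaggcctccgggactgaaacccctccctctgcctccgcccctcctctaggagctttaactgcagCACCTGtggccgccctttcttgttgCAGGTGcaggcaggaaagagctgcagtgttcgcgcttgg
Cldn3: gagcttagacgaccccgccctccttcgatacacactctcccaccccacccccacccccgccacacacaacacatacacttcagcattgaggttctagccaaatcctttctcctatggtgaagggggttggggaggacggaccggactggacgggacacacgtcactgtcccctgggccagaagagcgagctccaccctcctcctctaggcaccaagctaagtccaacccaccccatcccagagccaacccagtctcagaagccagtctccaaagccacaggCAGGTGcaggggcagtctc
The Cldn4 window held the AP-1 word TGACTCA at 2 places, 240 and 158 bases before the annotated start (-240 and -158), and 2 E-boxes. The Cldn3 window held 1 E-box and no AP-1 word. TGANTCA occurs in 7.81% of all windows. Over the 7 windows of 6 member genes (2 for Cldn7), it was found for Cldn4 and Cldn15, and the E-box for Krt8, Krt18, Cldn3, Cldn4 and Cldn7. GTGGGAA was found for Krt8 alone. GGAATG, the TEAD motif, was found for Cldn7 and Cldn15 and in 14.7% of all windows. GGGNGTG, the motif of KLF factors, was found for Krt18, Cldn3, Cldn7 and Cldn15 and in 29.2%. CTTTGAT, a motif of the Wnt effectors TCF and LEF, was found for none of these 6 genes and in 3.73%. Krt19 had no entry.

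Cldn7, on chromosome 11 (69964779 to 69967885, plus strand), lay between them. Its mean was 3.605 with DBZ (SD over cells 2.95) and 5.43 with DMSO (SD 3.87), a log2 change of -0.58. Pooled UMIs gave -0.61 (-0.65 to -0.56). Cldn15, on chromosome 5 (136966616 to 136975858, plus strand), was rare. It averaged 0.0749 with DBZ and 0.189 with DMSO, from 172 and 324 UMIs, and had a UMI in 7.33% of cells under DBZ (5.94 to 8.93%) against 18.7% under DMSO (16.3 to 21.3%). Its log2 change was -0.94 with the pseudocount of 0.05 and -1.22 from pooled UMIs (-1.49 to -0.95). Low genes are shrunk by the pseudocount. The 5 highest DBZ cells gave 15.7% of its DBZ sum.

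**Figure D1:**
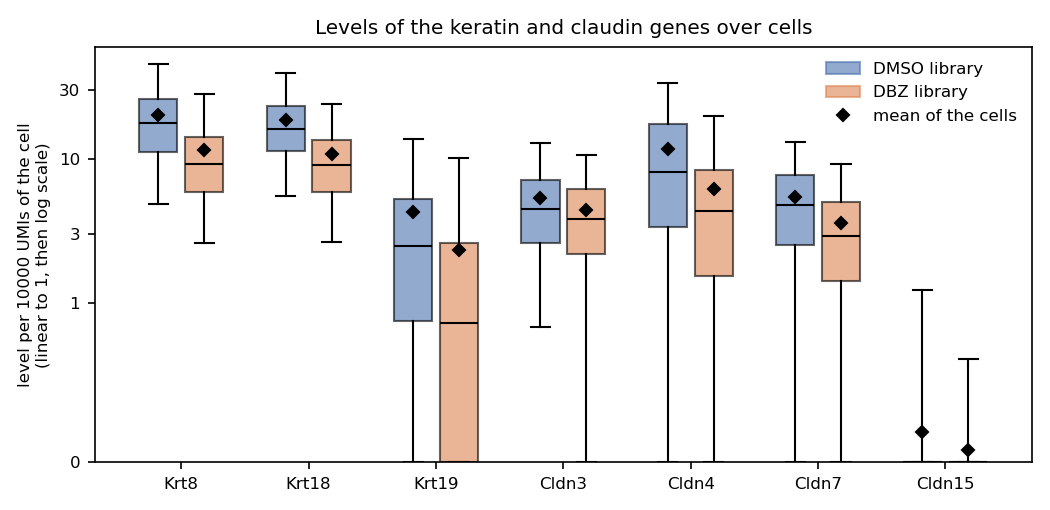
Levels per 10000 UMIs over the cells of each library (boxes: 25th to 75th percentile with the median, whiskers: 5th and 95th percentile, diamonds: mean; vertical axis linear to 1 and then on a log scale). All 7 means are lower in the DBZ library, from 20.2 to 11.5 for Krt8 and from 5.30 to 4.42 for Cldn3, and the cells of the libraries overlap.

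Set against all genes, the group lay low. The 7 were chosen with earlier results of these data known, so this is a description and no independent check. All 7 were below 0, and 5 of 7 (Krt8, Krt18, Krt19, Cldn4 and Cldn15) were at least 1.5-fold lower in the DBZ library. Of the 8797 tested genes, each with a UMI in 10% or more of 1 library's cells, 4.66% were at least 1.5-fold lower and 8.55% at least 1.5-fold higher. Cldn15 passed that filter only through the DMSO library, where it was higher (18.7% of cells against 7.33%). Its place in the count thus leans on the filter. With genes filtered at 25% of cells, 4 of 6 tested members were at least 1.5-fold lower, against 4.62% of genes. Cldn7 lay just short, with -0.584 against the bound of 0.585 below 0, and is past it with pooled UMIs. The median of the 7 was -0.81, and the median of all tested genes was 0.11. Between 1.53% (for Cldn15) and 4.67% (for Cldn7) of tested genes lay lower than each member, except for Cldn3 with 14.8%. Together the 7 genes took 0.396% of all UMIs under DBZ and 0.655% under DMSO. The median cell, thinned to 5000 UMIs, held 5 of the 7 in both libraries, but 6 or more were found in 25.5% of them under DBZ and 47.3% under DMSO. All 3 keratins were found together in 40.9% (38.1 to 43.6%) and 65.6% (62.5 to 68.6%).

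**Figure D2:**
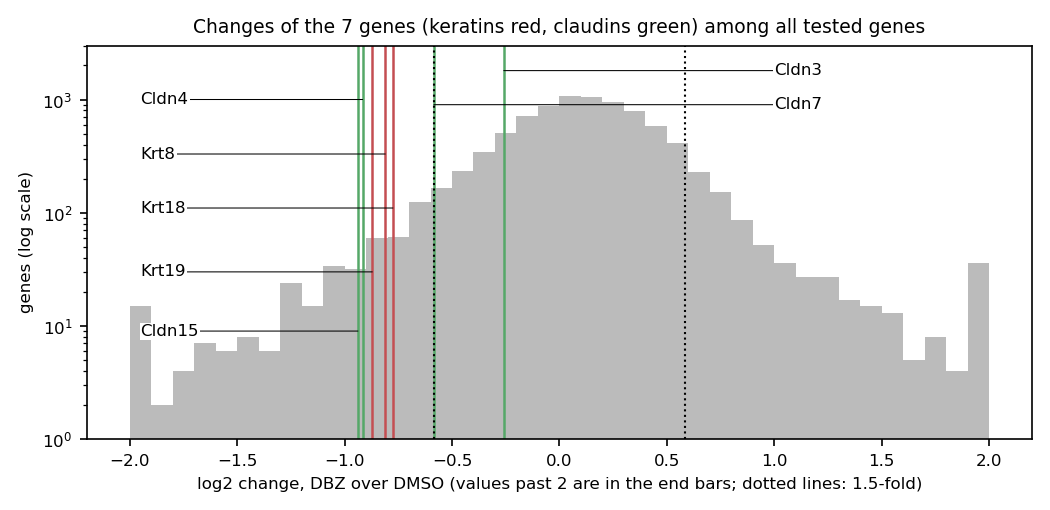
Log2 change, DBZ over DMSO, of 8797 tested genes (grey bars, number of genes on a log scale; changes past 2 in either direction are in the end bars) with the 3 keratins in red and the 4 claudins in green. Of the 7, 5 lie past the 1.5-fold line on the low side, Cldn7 lies on it at -0.58 and Cldn3 lies at -0.26.

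Lists of other junction and filament genes had medians near 0. Their counts past the fold stand beside 4.66% of all tested genes at least 1.5-fold lower and 8.55% higher. Of 19 tested tight junction partners, 1 was at least 1.5-fold lower and 0 were that much higher, with a median of 0.07. The lowest were Pard6b, a polarity adaptor, at -1.05 and Cxadr, a junction adhesion receptor, at -0.23. The highest were Cgnl1 at 0.46 and Magi3, a scaffold, at 0.43. The scaffold Tjp1 had 0.32 and the strand protein Ocln -0.06. None of the 6 desmosome genes passed 1.5-fold in either direction (median -0.01), from Perp at -0.46 to Dsp, the plakin that ties keratins to desmosomes, at 0.40. Among 7 genes of keratin linkers 0 were lower and 1 higher, Dst at 1.23 (median 0.21). Of 10 adherens junction genes and Epcam, 1 was lower, Cdh17, an intestinal cadherin, at -1.63. Ctnnb1, the gene of beta-catenin, was past the fold on the other side at 0.84. Epcam, which binds the Cldn7 protein, had -0.39, and Cdh1, the main epithelial cadherin, had 0.34.

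Other keratins and claudins differed from one another as well. The same shares of all tested genes, 4.66% lower and 8.55% higher, stand beside the counts given next. Krt23 was lower (4.01 per 10000 with DMSO and 2.36 with DBZ, -0.75), while Krt7, a type II keratin like Krt8, was almost level (3.59 and 3.79, 0.08) and Krt10 had 0.31. Of 5 tested other claudins, 1 was at least 1.5-fold lower, Cldn8 at -0.69, and the remaining 4 ran from -0.23 for Cldn12 to 0.57 for Cldn6. Among 10 genes of mesenchymal transition 2 were tested and both were lower, Vim, an intermediate filament protein (11.7 with DMSO and 5.73 with DBZ, -1.02), and S100a4 (-0.67). The 5 measured in too few cells to be tested went both ways, with Cdh2 at 1.11, Fn1 at 0.52, Zeb2 at 0.23, Snai2 at 0.13 and Acta2 at -0.69. Of 18 tested actin cortex genes 2 were past the fold, both lower, and 14 were below 0 (median -0.17). These were Myl9 (-1.59) and Myl12a (-0.66), light chains of myosin. Among 18 epithelial regulators 3 were lower and 2 higher (median 0.02). Klf5 and Klf6 both had -0.85 and Cdx1 -0.75, while Gata6 had 0.94 and Ovol2 0.66.

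Immediate early genes, a class induced quickly by growth signals and stress, were lower with DBZ over the same cells. Of 16 tested, with a median of -1.26, 13 were at least 1.5-fold lower and 0 higher, against 4.66 and 8.55% of all tested genes. Their summed level had a mean of 35.3 per 10000 with DBZ (5th to 95th percentile 11.6 to 72.5) and 66.6 with DMSO (20.2 to 131.9). Paneth markers averaged 276.3 in sum with DBZ and 64.2 with DMSO, and enteroendocrine markers 22.8 and 5.58. Across DMSO cells the log of the summed immediate early level had r of 0.30 with Krt18, 0.20 with Krt8 and -0.14 with Krt19, and across DBZ cells 0.22, 0.20 and 0.01. Across DMSO cells that r was -0.12 for Cldn3, 0.07 for Cldn4, -0.10 for Cldn7 and -0.09 for Cldn15. Across DBZ cells it was 0.02, 0.14, -0.03 and 0.02. The part of these differences in the keratin and claudin levels was not tested.

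**Figure D3:**
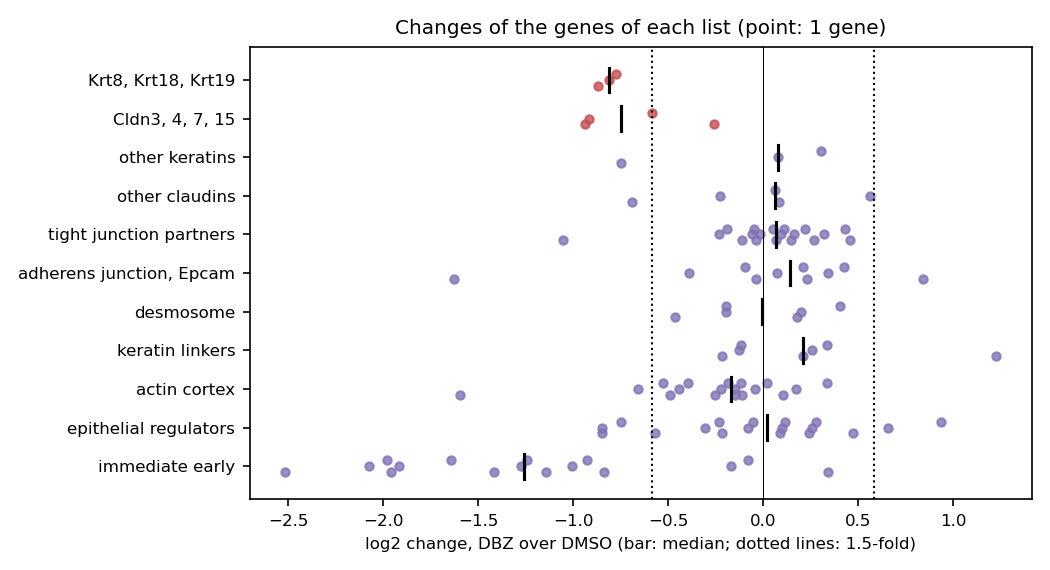
Log2 change, DBZ over DMSO, of each tested gene by list (points: genes; bars: list medians; dotted lines: 1.5-fold). The 3 keratins and 4 claudins are on the low side with medians of -0.81 and -0.75, tight junction, desmosome and linker genes centre near 0, and immediate early genes have a median of -1.26.

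Cells of both libraries were clustered together without any keratin or claudin gene, which gave 11 clusters. Genes that move with the members stayed in, so levels by cluster are a description. Cluster 8 was Paneth-like (Defa17, Defa3 and Ang4 among its leading genes), cluster 9 enteroendocrine-like (Chgb, Chga and Reg4, with a mean of 611.9 alpha-defensin transcripts per 10000 besides), and cluster 7 was led by mitosis genes (Ube2c, Nusap1, Cenpf and Birc5). In cluster 0 (Amica1, Ifi27l2b, Cdca7 and Sfrp5) 3 of the top 10 genes were DNA replication genes. The other clusters stayed unnamed. Clusters 1 (Pnliprp2, Egr4, Cited4 and Fos) and 6 (Gdf15, Pmp22, H2-Q10 and Ndufa4l2) held 21.3 and 11.7% of the DMSO library but 0.161 and 0.483% of the DBZ library. Cluster 10 (Npy, Tmem255a, Aldh1a2 and Parm1) held 12.8% of DBZ and 0.310% of DMSO cells. Such clusters may reflect their library rather than a state of the cells.

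Because the libraries fill the clusters unequally, the order of the clusters is given within each library, for clusters with at least 20 of its cells. In DMSO cells Krt8 and Krt18 were highest in cluster 1, with 24.1 and 24.9 per 10000. Krt8 was lowest in cluster 5 (Arl14, Cyp2c55, Fam13a and Smad7) with 11.9, and Krt18 in the enteroendocrine-like cluster with 11.1. In DBZ cells Krt8 was highest in cluster 3 (Sprr1a, Hmox1, Ero1l and Alox12b) with 25.4 and Krt18 in cluster 2 (Nts, Ly6g6c, Cd74 and Ltb) with 17.2. Both were lowest in the enteroendocrine-like cluster there, with 9.04 and 6.13. The highest cluster thus differed between the libraries, while both keratins were found in every cluster. Cldn3, the most even of the 7, ran from 3.59 in the enteroendocrine-like cluster to 6.77 in cluster 3 over DBZ cells, and from 4.04 in the mitotic cluster to 6.44 in cluster 3 over DMSO cells. Cldn7 was lowest in cluster 4 (Msx3, Spock2, Notum and Cdkn1c) in both libraries, with 2.36 (DBZ) and 2.996 (DMSO). Cldn4 was highest in cluster 2 over DBZ cells (12.8) and in cluster 6 over DMSO cells (16.8).

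Krt19 and Cldn15 varied most between clusters. Krt19 was highest in cluster 3 in both libraries, with 18.6 in its 28 DBZ cells and 9.65 in its 99 DMSO cells. It was lowest in the enteroendocrine-like cluster in both, with 0.639 (DBZ) and 1.32 (DMSO). Cldn15 was highest in the Paneth-like cluster over DBZ cells (0.435), where DMSO had only 12 cells. Over DMSO cells it was highest in the mitotic cluster (0.379) and cluster 0 (0.376), and in cluster 4 it was seen in 0 of 42 DMSO cells, which allows a share of up to 7.14%. Cells of the mitotic and Paneth-like clusters were also deeper, with medians of 19818.5 and 15645 UMIs against 10491.5 in cluster 10.

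**Figure D4:**
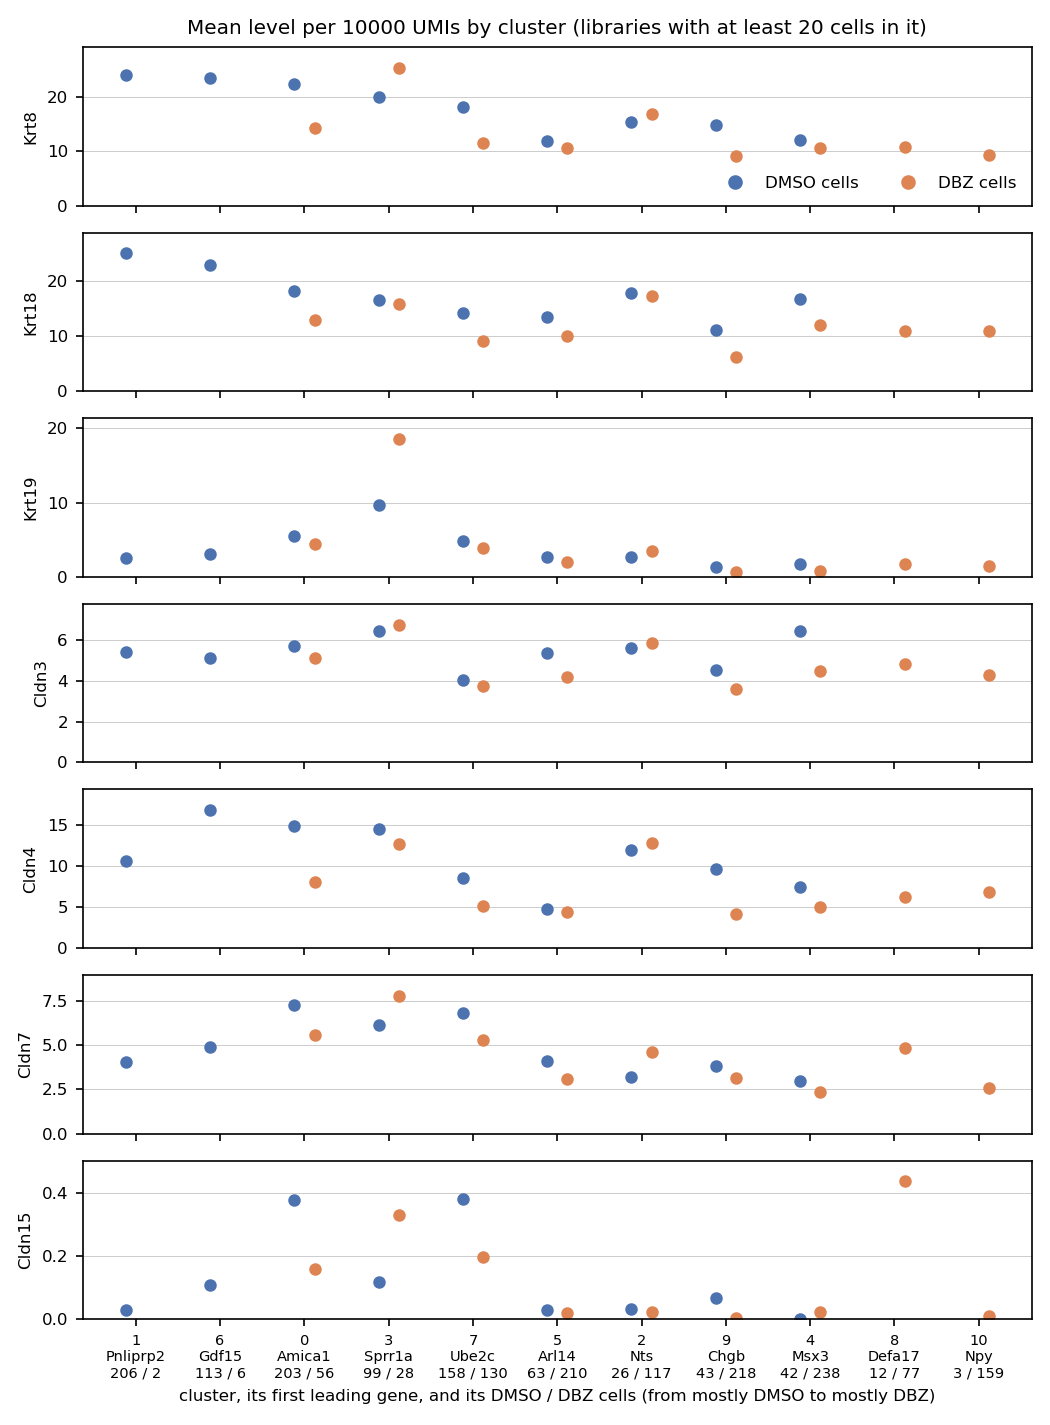
Mean level per 10000 UMIs of each gene in each cluster, for libraries with at least 20 cells in it (blue: DMSO cells, orange: DBZ cells), with clusters ordered from mostly DMSO to mostly DBZ cells. DMSO cells lie above DBZ cells in most clusters for Krt18 and Cldn4, while in cluster 3 (Sprr1a) DBZ cells have more Krt8 and Krt19.

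Within 7 clusters that held at least 20 cells of each library, the values differed from cluster to cluster, and differences between clusters were not tested. The enteroendocrine-like cluster (218 DBZ and 43 DMSO cells) had all 7 genes lower in DBZ cells and 5 at least 1.5-fold lower, against 12.3% of all genes tested there. Of the 5, Cldn15 rests on 2 UMIs in each library and was seen in 1.53% of the cluster's cells. It is thus not among the genes tested there, which had a UMI in 10% or more of 1 library's cells. Its Cldn4 was 4.17 with DBZ and 9.59 with DMSO (log2 change -1.19), and its Krt18 was 6.13 and 11.1 (-0.86). In the mitotic cluster (130 and 158 cells) all 7 were lower and 4 at least 1.5-fold lower, against 3.89% of genes. There Krt8 had 11.6 and 18.2 (-0.65) and Cldn4 5.13 and 8.51 (-0.72). Cluster 0 (56 and 203 cells) had all 7 lower and 3 past the fold, against 7.60%, among them Cldn4 with 8.07 and 14.9 (-0.88). These 3 clusters showed the same direction as the libraries as a whole. So did all 7 genes in cluster 5 and 6 of 7 in cluster 4, described next.

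The other 4 clusters had 0 to 2 genes past the fold on the low side. Cluster 4 (238 and 42 cells) had 6 of 7 lower and 2 past the fold against 9.35% of genes, and its Krt19 (-1.10) and Cldn3 (-0.51) were the lowest of the 7 clusters for these genes. Cldn15 there had 7 UMIs with DBZ and 0 with DMSO. Cluster 5 (210 and 63 cells) had all 7 lower and 0 past the fold, against 7.47%. Its Cldn15 rests on 5 UMIs with DBZ and 3 with DMSO. In cluster 2 (117 and 26 cells) only Krt18 and Cldn15 were below 0. Cldn15 had 3 UMIs with DBZ and 1 with DMSO there. None of the 7 passed the fold in either direction (9.22% of genes were lower and 23.1% higher by that much). Krt8 had 16.8 and 15.4 (0.13). In cluster 3 (28 and 99 cells) Krt18 and Cldn4 were below 0 and Cldn3 was at 0.07, while Krt8, Krt19, Cldn7 and Cldn15 were higher in DBZ cells. None was at least 1.5-fold lower there, against 9.40% of genes. Krt19 (0.94) and Cldn15 (1.19) were at least 1.5-fold higher, against 23.0% of genes higher by that much. Krt18 was the only member below 0 in all 7 clusters, from -0.86 to -0.04. Its pooled interval held 0 in cluster 2 (-0.21 to 0.05) and cluster 3 (-0.11 to 0.11). It lay below 0 in 5 clusters, as it did for Krt8, Krt19, Cldn4 and Cldn7. Of these, Krt8, Krt19 and Cldn7 also had 1 or 2 intervals above 0. With clusters made after centring each gene within its library, 93.9% of the 49 pairs of gene and cluster were lower in DBZ cells, against 77.6% here, and Cldn7 was then below 0 in all 7 clusters compared.

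A part of the library difference went with the share of each cluster. Over the 997 DBZ and 634 DMSO cells of these 7 clusters, giving both libraries the same share of each cluster moved Krt8 from -0.66 to -0.33, Cldn4 from -0.90 to -0.55, Cldn7 from -0.70 to -0.21 and Krt19 from -1.04 to 0.02. Krt18 (-0.56 to -0.44) and Cldn3 (-0.28 to -0.22) moved less. Cldn15, which has few UMIs, moved from -1.44 to -0.48. Then 0 of 7 were at least 1.5-fold lower, against 2.31% of all genes. The value of 0.02 for Krt19 joins clusters of unlike direction. Krt19 was lower in DBZ cells in 5 of the 7 clusters, with a median of -0.32 over the 7. It was higher in cluster 2 and in cluster 3, where 28 DBZ cells averaged 18.6 and 99 DMSO cells 9.65. The clusters themselves carry library differences, so equal shares may also take out part of the difference between treatments. With clusters made after each gene was centred within its library, equal shares gave -0.58 for Krt8, -0.51 for Krt18, -0.75 for Cldn4, -0.77 for Cldn15, -0.44 for Cldn7, -0.30 for Cldn3 and -0.19 for Krt19. Of these, 2 were past the fold, Cldn4 and Cldn15, against 3.15% of genes. The size of the remaining difference thus depended on how the states were drawn.

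Across cells, Krt8 and Krt18 went together most closely. Pearson r of their log values was 0.57 over 1241 DBZ cells and 0.58 over 968 DMSO cells, and 0.45 and 0.48 after thinning. Cells of 1 library share preparation and differ in depth, so these values are descriptions. Of the 21 pairs of members, 21 had r above 0 under DBZ and 20 under DMSO, with medians of 0.26 and 0.22. The neighbours Cldn3 and Cldn4 had 0.37 and 0.43, and Krt8 and Cldn4 had 0.36 and 0.46. Krt18 and Cldn7 had only 0.20 and 0.09, and Krt18 and Cldn15 0.06 and -0.02. Krt19 and Cldn7 formed another pair, with 0.36 and 0.32, and their r with log10 of the cell's UMIs was 0.29 and 0.30 for Krt19 and 0.23 and 0.31 for Cldn7. For Krt8 that r was 0.03 and 0.08.

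**Figure D5:**
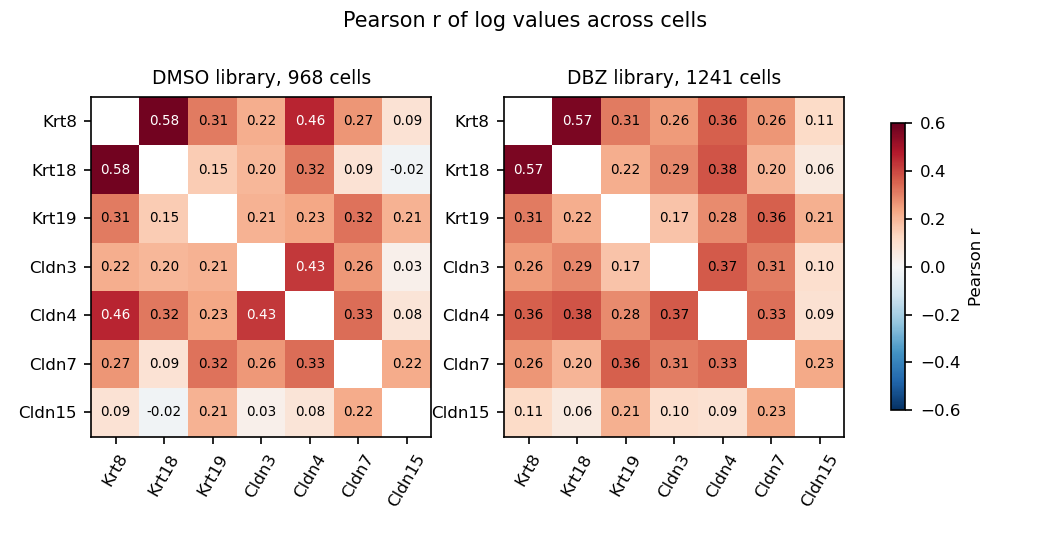
Pearson r of log values between the 7 genes across cells, by library (colour and number: r). Krt8 and Krt18 have the highest r in both libraries, 0.58 over DMSO cells and 0.57 over DBZ cells, and Krt18 and Cldn15 have the lowest in both, -0.02 and 0.06.

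The genes most like each member across cells were ranked by the mean of the r in both libraries over 7526 genes (7527 for Cldn15 and for the mean of all 7). Krt8 and Krt18 led each other's ranking (0.57), and both lists held Cldn4, Tnfrsf12a, a receptor of the TNF family, Dstn, an actin-severing protein, and Myl12a. Tnfrsf12a (-0.90), Dstn (-0.68) and Myl12a (-0.66) were lower in the DBZ library too. Krt19 was most like S100a10 (0.44), Lgals4, an intestinal galectin (0.39), Ahnak (0.39), Gpx1 (0.37) and Tspan8 (0.37). Cldn15 was most like Lgals4 (0.47), Pigr, the transporter of secreted antibodies (0.36), Ppp1r1b (0.35), Gpx2 (0.35) and Muc13 (0.30). Cldn7 had Lgals4 (0.37), Krt19 (0.34), Cldn4 (0.33), Epcam (0.32) and Tspan8 (0.32). Cldn4 had Krt8 (0.41), Cldn3 (0.40), Ier3, an immediate early gene (0.37), and Krt18 (0.35). For Cldn3 the first was Cldn4 (0.40), with Cldn7, Krt18 and Krt8 at 0.28 or less. The mean of all 7 was most like S100a10 (0.41), Tspan8 (0.40), Ier3 (0.40), Cxadr (0.39) and Epcam (0.38).

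The share of type I among keratin transcripts had no fixed order between the libraries. Type I transcripts (Krt18 and Krt19) made up 53.8% of the UMIs of the 3 keratins under DBZ (exact interval 53.3 to 54.3%, of 40328 UMIs) and 52.8% under DMSO (52.4 to 53.2%, of 56151). As a mean over cells the shares were 53.3 and 53.9%. Pooled after thinning every cell to 5000 UMIs they were 53.3 and 53.1%. The order of the libraries thus turned when the shares of cells were averaged, but not when depth was made equal. It also turned when all 8 listed keratins were counted, an alternative chosen after seeing the data that adds type II Krt7 and type I Krt10, Krt17, Krt20 and Krt23. The type I share was then 51.4% under DBZ (51.0 to 51.9%) and 52.7% under DMSO (52.4 to 53.1%). UMIs count molecules and not fragments, so they were not divided by length, and capture may differ between genes. The enteroendocrine-like cluster had the lowest type I share, 43.9% in DBZ cells (42.3 to 45.6%) and 46.4% in DMSO cells (43.6 to 49.3%). Cluster 3 had the highest Krt19 share of type I transcripts, 53.6% in DBZ cells and 40.8% in DMSO cells, against 20.7 and 22.0% over all cells.

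Splits of the cells by other transcripts, all after thinning to 5000 UMIs, gave the levels by cell set. A cell without a UMI of the split gene at this depth may still express that gene. Hes1, the classical Notch target, was seen in 315 of the DBZ cells and 545 of the DMSO cells. In DMSO cells Cldn4 averaged 10.0 with and 14.3 without a Hes1 UMI, while in DBZ cells it averaged 7.24 with and 5.90 without. Cells without a Hes1 UMI at this depth thus had more Cldn4 under vehicle and less under DBZ. Before thinning, a Hes1 UMI was seen in 45.4% of DBZ and 75% of DMSO cells. Some of the cells counted as without Hes1 therefore held its transcripts. The DBZ over DMSO log2 change of Cldn4 was -1.27 in cells without Hes1 (pooled interval -1.36 to -1.21) and -0.47 in cells with it (-0.57 to -0.37). For Krt8 it was -1.01 and -0.59, for Krt18 -0.86 and -0.59 and for Cldn3 -0.38 and -0.09, while Cldn7 hardly differed (-0.62 and -0.63).

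Cells without a UMI of Prox1, a homeobox factor linked to Wnt activity in gut tumours, had more Krt19 in both libraries. Krt19 averaged 5.35 in 135 DBZ cells without and 1.90 in 1106 with Prox1, and 7.29 in 231 DMSO cells without and 3.36 in 737 with it. Cldn7 showed the same order, with 5.96 against 3.39 and 7.70 against 4.83. Splitting by Fos, an immediate early gene, gave unlike orders inside the vehicle library. Krt8 averaged 20.4 in 800 DMSO cells with Fos and 19.2 in 168 without, Krt18 18.7 and 18.5, and Krt19 3.985 and 5.79. A cell without a Fos UMI at this depth may still express Fos. In cells without one, the DBZ over DMSO log2 change was -0.68 for Krt8 (pooled interval -0.76 to -0.59), -0.83 for Cldn4 (-0.94 to -0.72) and -1.27 for Krt19 (-1.45 to -1.12). In cells with Fos these were -0.90, -1.05 and -0.88.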

How the data were processed

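Single-cell RNA was captured on a droplet chip aiming at 3000 cells per sample, and read to a mean of 113705 (DBZ) and 115754 (DMSO) reads per cell, per the labels' protocols. Per the submitters' processing notes, Cell Ranger 2.1.1, Seurat and the build mm10 were used. No source states how cells and genes were filtered. Values deposited by the authors are natural log values, ln(1 + 10000 × the share of a cell's UMIs that a gene took). Each of the 7553435 nonzero values was a whole multiple of 1 step per cell (tolerance 0.01), and so UMIs were recovered. With 1 library per group no count test was fitted. Columns beginning CTRL and GSI were read as DMSO and DBZ from the meaning of the names.

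For the log2 change, 0.05 was added to each library's mean over equally weighted cells, and DBZ was divided by DMSO. Beside it stand pooled UMIs with exact conditional 95% intervals, and Clopper-Pearson intervals for shares. Thinning to 5000 UMIs left out 0 cells. Clusters (scanpy 1.11.5, igraph 0.11.9) used 2000 variable genes without those named Krt or Cldn, 30 components, 15 neighbours and Leiden resolution 1. A cluster took a name from at least 3 markers of 1 class among its top 10 genes. Scrublet marked 2 DBZ and 6 DMSO cells, too few to say much of doublets. Scripts were tested on simulated data. Named list genes are the 2 highest and 2 lowest tested members, and leading or most alike genes the first 4 or 5. A gene among the most alike is not reported here. Tjp1, Ocln, Cdh1, Cdx1 and the split genes Hes1, Prox1 and Fos were named outside that rule or for their role, some after their values were seen. Members and lists were chosen with earlier results of these data known.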

Additional observations from a re-analysis of the deposited data

Results flagged for a closer look

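The changes given here go against the lower level over all cells. Each is a pooled log2 change, DBZ over DMSO, within a cluster, whose counting interval lies above 0. The difference between clusters was not tested, and with 1 library per group it has no replicate check. With clusters made after centring each gene within its library, Cldn7 was lower in DBZ cells in all 7 compared clusters (-0.98 to -0.04), while Krt8 reached 0.11 and Krt19 0.61 in the highest of them.

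In cluster 3 (Sprr1a, Hmox1, Ero1l and Alox12b; 28 DBZ and 99 DMSO cells) Krt19 had 0.74 (0.63 to 0.86), from a median of 13.8 per 10000 in DBZ cells and 5.14 in DMSO cells. The 3 highest DBZ cells gave 31.0% of its sum, and the change of means was 0.94, or 0.80 without the 3 highest cells of each library. Krt8 had 0.31 (0.22 to 0.41) there and Cldn7 0.32 (0.14 to 0.49), with changes of means of 0.22 and 0.27 without such cells. The median change of means over all genes tested in this cluster was 0.18, and 23.0% were at least 1.5-fold higher. The values of Krt8 and Cldn7 thus lay near the general shift of the cluster. Cldn15 had 1.32 (0.31 to 2.33) from only 18 DBZ and 19 DMSO UMIs, and 3 DBZ cells gave 71.8% of its sum. DBZ cells of this cluster were deeper, with a median of 15631 UMIs against 11870.

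In cluster 2 (Nts, Ly6g6c, Cd74 and Ltb; 117 and 26 cells) Krt19 had 0.53 (0.22 to 0.85) and Cldn7 0.36 (0.08 to 0.64). Their means were 3.47 and 2.72 for Krt19 and 4.61 and 3.21 for Cldn7. Without the 3 highest cells of each library the changes of means were 0.75 and 0.72. Over all genes tested in cluster 2 the median change of means was 0.15, and 23.1% were at least 1.5-fold higher.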

How the results depend on the processing

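No paired analysis was possible because each group has 1 library. The median change of the 7 genes was -0.81. It was -0.75 at a pseudocount of 0.5, -0.92 centred on the median change, -0.89 without UMIs of mitochondrial, ribosomal protein and secretory genes, -0.68 without the Paneth-like and enteroendocrine-like clusters and -0.71 as a difference of mean log values. Equal cluster shares, chosen after seeing the data, gave -0.33, or -0.51 with clusters centred within library. Of 7 genes 5 were at least 1.5-fold lower (4.66% of all tested genes), but 0 at 2-fold (1.38%) or with equal cluster shares (2.31%). With equal shares of centred clusters 2 were (3.15%). Under the other settings 4 to 6 were, of 6 tested where cells were thinned or genes filtered at 25% of cells. The share of all tested genes then ran from 1.28% (pseudocount 0.5) to 6.96% (centred on the median change). Centring moved the shares of all genes at least 1.5-fold lower and higher from 4.66 and 8.55% to 6.96 and 5.58%. Krt19 turned to 0.0156 with equal cluster shares, and no other gene changed sign under the 13 settings. Cldn15 ran from -1.23 to -0.11. Of 49 pairs of gene and cluster 77.6% were lower with DBZ, and 93.9% with clusters centred within library. Thinning lowered r of Krt8 and Krt18 to 0.45 (DBZ) and 0.48 (DMSO). The type I share as a mean over cells was 53.3% (DBZ) and 53.9% (DMSO), and over all 8 listed keratins 51.4 and 52.7%. Except where values show it, the cause was not tested. Depth limits Cldn15 most, with 172 and 324 UMIs.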
